A study of Homo sapiens with 2 samples.

Results

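The 10 genes described here are hypoxia factors and VEGF genes of ARP1 myeloma cells, out of 57485 genes listed in each deposited table. They are the ligands VEGFA and VEGFB, the HIF subunits HIF1A and EPAS1, the HIF hydroxylases EGLN1 and EGLN3, and the HIF targets ADM, CA9, BNIP3 and NDRG1. The set was chosen by gene name and from the known higher FPKM of VEGFA in these same libraries, so that value is a description and not a test. The study sequenced poly(A) RNA of ARP1, a human multiple myeloma (MM) line, carrying a lentiviral hairpin against SRD5A1 that doxycycline (Dox) switches on. There was 1 library of untreated cells and 1 library of cells treated with Dox, and both groups carry the hairpin. The title of the treated library names SRD5A1, whereas its genotype label names SRD5A2. The time and dose of Dox for these libraries were not given in the sources used here, and no library of Dox-treated cells without the hairpin was analysed here, so the hairpin and Dox cannot be told apart. With 1 library per condition, no difference below has a replicate check.

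HIF is a pair of a HIF alpha subunit (HIF1A or EPAS1) and ARNT. When oxygen is present, EGLN enzymes hydroxylate the alpha subunit, VHL binds it, and it is degraded. When oxygen is low, the alpha subunit builds up and the pair binds DNA at targets that include VEGFA, glycolytic enzymes, CA9 and BNIP3. The control acts mainly on the protein of the alpha subunit, which RNA levels do not measure. VEGFA, the main growth factor of blood vessels, is made by myeloma cells and acts on vessels in the marrow. VEGFA is also known as a target of ATF4, the transcription factor of the integrated stress response.

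The expected counts, which share out reads that match several transcripts, summed to 45918570 without Dox and 48728927 with Dox. Fold differences are given as log2 ratios of FPKM (fragments per kilobase of transcript, scaled to the library total), with Dox over without Dox, after a pseudocount of 0.1 FPKM that understates differences of low genes. A gene was tested for size if either library had 1 FPKM or more, and 2-fold was the limit for calling it higher or lower. Of 14859 such genes, 23.4% were past 2-fold, with 17.0% higher and 6.41% lower in the library with Dox, and the median log2 ratio was 0.15. Count ratios are per library total and have exact binomial 95% intervals, which cover counting error only. Plasma cell markers were present in both libraries: all 9 had at least 15.7 FPKM, whereas the 12 markers of other cells had at most 1.93 FPKM (summed 4.32 and 5.61 FPKM), and CD3D was at 0 counts in both libraries. SRD5A1, the targeted gene, was listed at 13.0 FPKM without Dox and 25.9 FPKM with Dox, higher where the label calls for less of it. Every direction below therefore rests on labels that this gene goes against, and "with Dox" means the library labelled so. In RNA of pooled cells, more RNA per cell and more cells with the RNA cannot be told apart.

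VEGFA had the largest difference of the 6 tested members. It was listed at 20.9 FPKM without Dox and 115 FPKM with Dox, from 2606 and 12020 expected counts. The library with Dox was thus 5.50-fold higher, a log2 ratio of 2.45, and 97.1% of all tested genes had a lower ratio. By expected count over the library total, the difference was 4.35-fold (counting interval 4.17 to 4.54), a log2 ratio of 2.12 (2.06 to 2.18). FPKM, unlike the count, is divided by the mean effective length of the transcripts assigned to the gene, and VEGFA length was lower with Dox. The mean VEGFA length was 2956 bases without Dox and 2390 bases with Dox, so it fell by 19.1%. Among 6849 genes with at least 1000 counts in both libraries, 0.467% had a fall in length at least as large. The tables list 32 VEGFA transcripts of 336 to 12167 bases and give no value for each, so which of them differed was not tested. VEGFA (ENSG00000112715.21) lies on chromosome 6 from 43770184 to 43786487 of GRCh38 in GENCODE release 29, on the forward strand.

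Of the other VEGF ligands, only VEGFB was tested. VEGFB, a ligand of FLT1 that acts little on vessel growth, was listed at 24.3 FPKM without Dox and 17.7 FPKM with Dox, a log2 FPKM ratio of -0.45. It had 1008 and 775 counts, a log2 count ratio of -0.46 (-0.60 to -0.33). VEGFA exceeded VEGFB in log2 count ratio by 2.58 (counting interval 2.44 to 2.73). The level of VEGFA was 0.860 times that of VEGFB per length without Dox and 6.49 times with Dox. VEGFC, VEGFD and PGF, the lymphatic and placental relatives, were listed at 0.05 to 0.16 FPKM in the 2 libraries, below the limit for a test. The receptors of the family had few or no counts, apart from NRP2. FLT1 was listed at 3 and 6 counts, NRP1 at 0 and 1, and KDR and FLT4 at 0 in both libraries. NRP2, a coreceptor, was listed at 1.69 FPKM without Dox and 2.97 FPKM with Dox, a log2 FPKM ratio of 0.78 and a log2 count ratio of 1.24 (1.003 to 1.482). In all, 3 of the 10 VEGF ligands and receptors were tested, with VEGFA higher and VEGFB and NRP2 within 2-fold by FPKM.

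**Figure D1:**
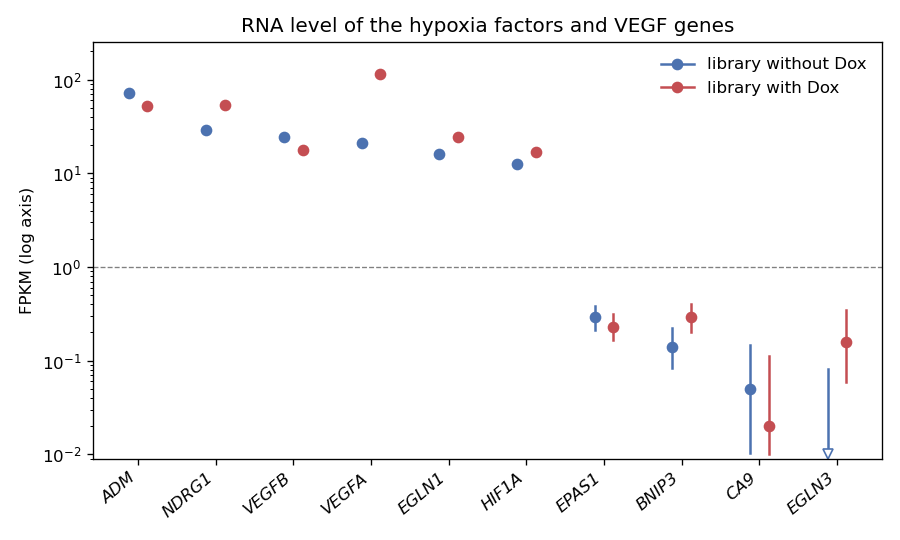
FPKM (log axis) of the 10 members in the library without Dox (blue) and the library with Dox (red), ordered by level without Dox. Points are single libraries, vertical lines are exact Poisson 95% intervals of the counts, the dashed line marks 1 FPKM, and the open triangle at the foot of the axis marks EGLN3 at 0 counts, with a line up to the level of 3 counts. VEGFA moves from 20.9 to 115 FPKM, and EPAS1, BNIP3, CA9 and EGLN3 lie below 1 FPKM in both libraries.

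In order of level per length without Dox, the members were ADM, NDRG1, VEGFB, VEGFA, EGLN1, HIF1A, EPAS1, BNIP3, CA9 and EGLN3. With Dox, VEGFA stood first, followed by NDRG1, ADM, EGLN1, VEGFB and HIF1A. VEGFA ranked 4 of 10 without Dox, above 66.7% of the tested genes, and with Dox it was above 93.9% of them. Without Dox the counting intervals of neighbours were apart for the 7 highest members and overlapped from EPAS1 to EGLN3. With Dox the intervals of NDRG1 and ADM overlapped, as did those of VEGFB and HIF1A and those of the 4 lowest genes. These intervals compare members within 1 library and hold no error between cultures.

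Among the HIF subunits, HIF1A was the expressed alpha subunit. HIF1A (chromosome 14 from 61695513 to 61748259) was listed at 12.7 FPKM without Dox and 16.8 FPKM with Dox, a log2 FPKM ratio of 0.40. Its counts of 1173 and 1617 gave a log2 count ratio of 0.38 (0.27 to 0.49), which is within 2-fold. EPAS1, the alpha subunit known from vessels and kidney tumours, was listed at 0.29 FPKM without Dox and 0.23 FPKM with Dox, from 47 and 41 counts. Its log2 count ratio of -0.28 had an interval of -0.92 to 0.35, so no difference was detectable at this depth. The level of HIF1A was 43.6 times that of EPAS1 without Dox and 72.9 times with Dox. ARNT, the shared partner, was listed at 49.0 and 67.2 FPKM, a log2 FPKM ratio of 0.45. The log2 count ratio of HIF1A minus that of ARNT was -0.10 (-0.22 to 0.01), so no difference between the 2 ratios was detectable at this depth. HIF3A and ARNT2 had at most 5 counts in either library.

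The oxygen-sensing hydroxylases differed among themselves. EGLN1, the main hydroxylase of HIF1A and itself a HIF target, was listed at 16.0 FPKM without Dox and 24.3 FPKM with Dox, a log2 FPKM ratio of 0.60 and a log2 count ratio of 0.59 (0.51 to 0.67). EGLN2, a relative that hypoxia does not induce, was listed at 35.1 and 28.5 FPKM, a log2 FPKM ratio of -0.30. EGLN1 exceeded EGLN2 in log2 count ratio by 1.04 (0.93 to 1.16), and EGLN2 remained the higher of the pair per length in both libraries. EGLN3, the relative that hypoxia induces most in many cells, was listed at 0 counts without Dox and 6 counts with Dox. Against the limit of 3 counts that a count of 0 allows, EGLN3 was at least 1.88-fold higher with Dox, at a level of 0.16 FPKM. That bound takes the 6 counts as exact, and the counting interval of the ratio began at 1.11-fold.

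Of the 17 genes for HIF subunits, hydroxylases, degradation and cofactors, 13 were tested. Of these 13 genes, 0 were past 2-fold higher and 0 past 2-fold lower, beside 17.0% and 6.41% of all tested genes. Their median log2 FPKM ratio was -0.05, beside 0.15 for all tested genes, with 6 genes above 0. By expected counts over the library total, it was 0.166 beside 0.169, with 7 genes above 0, so the gap depends on the unit. HIF1AN, the asparagine hydroxylase of HIF, was listed at 19.8 and 19.0 FPKM. VHL was listed at 41.5 and 42.9 FPKM. The log2 ratios of HIF1AN and VHL, -0.05 and 0.05, took the other sign under some scalings. RBX1, a subunit of the VHL ligase, had the lowest ratio of the 13 genes, from 62.5 FPKM without Dox to 35.8 FPKM with Dox (log2 -0.80). It passed 2-fold, at -1.02, only with the TMM factors of edgeR, which move the median of all tested genes to -0.06, and with the similar size factors of DESeq2. CUL2, ELOB and ELOC of the same ligase had log2 FPKM ratios of -0.32, -0.19 and -0.24. CITED2, an inhibitor of HIF that competes for the coactivators, had a ratio of -0.36, and the coactivators EP300 and CREBBP had ratios of 0.29 and 0.45.

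**Figure D2:**
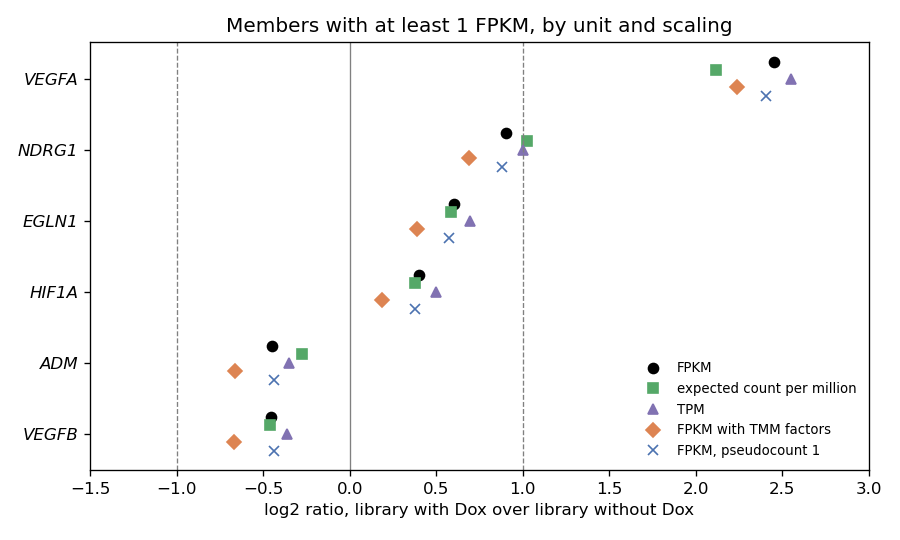
Log2 ratio of the library with Dox over the library without Dox for the 6 members with at least 1 FPKM, by unit and scaling (horizontal axis, log2 units). The solid line marks no difference and dashed lines mark 2-fold, each point is a value of 1 pair of libraries, and VEGFA lies beyond 2-fold in every setting shown, from 2.12 to 2.55.

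ADM, NDRG1, BNIP3 and CA9, the other targets among the members, did not pass 2-fold by FPKM or were below 1 FPKM. ADM, the vasodilator peptide adrenomedullin, was listed at 71.2 FPKM without Dox and 52.2 FPKM with Dox, a log2 FPKM ratio of -0.45. Its 3715 and 3257 counts gave a log2 count ratio of -0.28 (-0.34 to -0.21), below 0 under every scaling tried. VEGFA exceeded ADM in log2 count ratio by 2.40 (2.30 to 2.49). NDRG1, a stress and differentiation gene that hypoxia induces strongly in many cells, was listed at 28.9 FPKM without Dox and 54.0 FPKM with Dox. The library with Dox was 1.87-fold higher by FPKM (log2 0.90) and 2.03-fold higher by counts (log2 1.02, interval 0.95 to 1.10). The 2-fold limit was thus passed by counts and not by FPKM, and the NDRG1 log2 ratio was 0.69 with TMM and with DESeq2 factors. BNIP3, a mitophagy receptor of the outer mitochondrial membrane, was listed at 0.14 FPKM without Dox and 0.29 FPKM with Dox, from 18 and 34 counts. Its log2 count ratio of 0.83 had an interval of -0.03 to 1.74. CA9, a carbonic anhydrase of the cell surface often used as a hypoxia marker, was listed at 3 counts without Dox and 1 count with Dox, a log2 count ratio of -1.67 with an interval of -7.38 to 1.97. CA9 overlaps exons of ARHGEF39 on the other strand, which had 605 and 889 counts, and the strand setting of the counting was not given, so the few CA9 counts are uncertain. Of the 10 members, 6 passed the filter of 1 FPKM, and by FPKM 1 of these, VEGFA, was past 2-fold higher and 0 were past 2-fold lower, beside 17.0% and 6.41% of all tested genes. VEGFA was already known to be higher when the set was chosen, so nothing is read from this count.

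The letters that the HIF pair binds are common in promoters of the members, also in those with almost no RNA. RefSeq promoters (GRCh38.p14, 250 bases before to 50 bases after the start) were matched for 8 of the 10 members, and VEGFA and NDRG1 had no entry. The core letters ACGTG or GCGTG, on either strand, were found in 7 of the 9 promoters of these 8 genes (HIF1A has 2), beside 48.4% of all 35116 promoters. The stretches below, written in the direction of the gene with matches in capitals (CACGT and CACGC are the same cores on the other strand), show that members with low and with high RNA carry them.
BNIP3 (chr10:131982014-131982173, reverse strand): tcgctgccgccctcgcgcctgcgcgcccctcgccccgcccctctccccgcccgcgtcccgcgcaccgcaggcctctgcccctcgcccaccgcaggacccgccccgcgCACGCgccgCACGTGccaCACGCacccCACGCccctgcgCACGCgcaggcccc
CA9 (chr9:35673898-35673927, forward strand): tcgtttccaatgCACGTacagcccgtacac
EGLN1 (chr1:231422283-231422312, reverse strand): gggccgtggtgtACGTGcagagcgcgcaga
ADM (chr11:10304960-10304989, forward strand): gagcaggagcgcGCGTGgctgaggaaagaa
BNIP3 held 6 matches, of which 2 are the strands of 1 CACGTG, and had at most 0.29 FPKM. The CA9 match began 18 bases before the RefSeq start that defines its window, the EGLN1 match 13 bases and the ADM match 101 bases. GENCODE starts these 3 genes farther upstream, so the printed stretches of CA9, EGLN1 and ADM lie within its outer gene bounds. EGLN3 had 0 matches in this window. TGATGNAAN, the composite element bound by ATF4 with C/EBP partners, was found on either strand in 0 of the 9 member promoters and in 3.61% of all promoters. At a share this low, 9 promoters are too few to show a lack of the element, and VEGFA was not among them. A match is a description of letters and not a bound site.

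Close relatives differed from the members in these libraries. ADM2, a peptide of the same family as ADM and a known ATF4 target, was listed at 5.76 FPKM without Dox and 55.8 FPKM with Dox, 9.69-fold higher (log2 3.25). ADM2 exceeded ADM in log2 count ratio by 3.55 (3.44 to 3.66), and the level of ADM was 12.4 times that of ADM2 without Dox and 0.936 times with Dox. BNIP3L, the mitophagy relative of BNIP3 and also a HIF target, was named after its values were seen. It was listed at 7.11 FPKM without Dox and 18.5 FPKM with Dox (log2 1.37), and it was 50.8 and 63.8 times the level of BNIP3. NDRG2, a relative of NDRG1, was listed at 23.3 FPKM without Dox and 8.07 FPKM with Dox (log2 -1.52), and NDRG3 at 15.2 and 15.1 FPKM. NDRG1 exceeded NDRG2 in log2 count ratio by 2.37 (2.18 to 2.56) and NDRG3 by 1.03 (0.91 to 1.15).

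**Figure D3:**
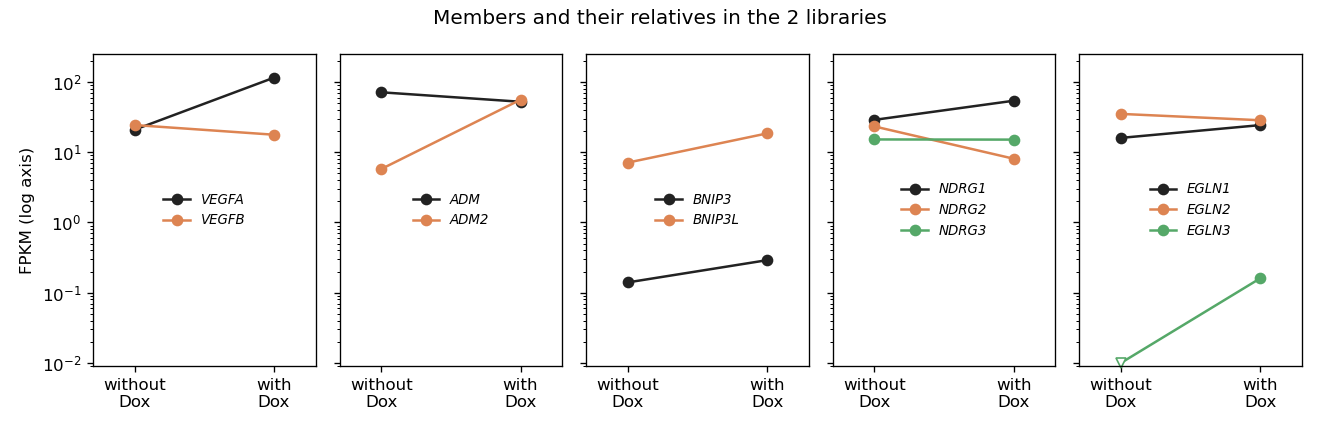
FPKM (log axis) of members and their relatives in the library without Dox (left of each panel) and the library with Dox (right), with 1 line per gene joining its 2 values. The open triangle at the foot of the axis marks EGLN3, at 0 counts without Dox. VEGFA, ADM2, BNIP3L and NDRG1 are higher with Dox, at 115, 55.8, 18.5 and 54.0 FPKM, whereas VEGFB, ADM, NDRG2 and EGLN2 are lower.

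To ask whether the VEGFA difference came with other HIF targets, 67 further targets were listed in 2 groups. The 21 targets of glycolysis, from glucose entry to lactate export, were mostly lower with Dox. Of 20 tested, 9 were past 2-fold lower (45.0%, beside 6.41% of all tested genes) and 0 were past 2-fold higher. Their median log2 FPKM ratio was -0.91, beside 0.15 for all tested genes, and 19 of 20 lay below 0 with FPKM and with every scaling. Together they took 1.42% of all counts without Dox and 0.787% with Dox. ALDOC and ALDOA, the aldolases, were listed at 49.0 and 731 FPKM without Dox and at 14.8 and 266 FPKM with Dox. TPI1, the triose isomerase, was listed at 939 FPKM without Dox and 378 FPKM with Dox (log2 -1.31). GPI and PGAM1, an isomerase and a mutase of the same path, had log2 FPKM ratios of -1.29 and -1.20. HK2 and HK1, which phosphorylate glucose, had ratios of -1.09 and -1.01, and SLC16A3, the lactate exporter, had -1.07. PDK1, a pyruvate dehydrogenase kinase, was the only tested gene of this group above 0 and was named after its value was seen. It went from 16.2 FPKM without Dox to 23.9 FPKM with Dox (log2 0.56).

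The 46 targets outside glycolysis went both ways. Of 36 tested, 9 were past 2-fold higher (25.0%, beside 17.0% of all tested genes) and 2 past 2-fold lower (5.56%, beside 6.41%), and their median log2 FPKM ratio was 0.32. DDIT4, an inhibitor of mTOR, was listed at 27.1 FPKM without Dox and 492 FPKM with Dox (log2 4.18). STC2, the secreted stanniocalcin, was listed at 13.0 FPKM without Dox and 145 FPKM with Dox (log2 3.47). DDIT4 and STC2 are also known ATF4 targets. CCNG2, an atypical cyclin, went from 2.02 to 10.8 FPKM (log2 2.37), and NDUFA4L2, a mitochondrial protein, from 2.62 to 13.3 FPKM (log2 2.30). RORA, a nuclear receptor, and KDM4C, a histone demethylase, had log2 FPKM ratios of 1.47 and 1.40. PLOD2 went from 0.15 to 2.72 FPKM (log2 3.50) and VLDLR from 0.67 to 2.5 FPKM (log2 1.76). Both were below 5 FPKM and were named after their values were seen. BNIP3L, given above at log2 1.37, was also among the higher targets of this group. TFRC, the transferrin receptor, was listed at 181 FPKM without Dox and 42.4 FPKM with Dox (log2 -2.09), and EFNA3, an ephrin ligand, at 11.8 and 2.81 FPKM (log2 -2.03). A further 10 targets of this group were below 1 FPKM in both libraries. Over both groups, 9 of 56 tested targets were higher (16.1%, beside 17.0% of all tested genes) and 11 were lower (19.6%, beside 6.41%). The median of the 56 log2 FPKM ratios was -0.24. DDIT4, STC2 and HMOX1 are also known as ATF4 targets. Without them, 7 of 53 were higher and 11 lower, beside the same 17.0% and 6.41%, with a median of -0.26. HMOX1, the heme oxygenase, was itself lower at 13.6 and 7.20 FPKM (log2 -0.91), within 2-fold. The TMM factors raised the number of lower targets from 11 to 18 and left 9 higher. Among all 14859 tested genes, these factors raised the lower from 953 to 1542 and cut the higher from 2521 to 1922.

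Of the 5 genes listed here as known ATF4 targets, VEGFA, DDIT4, STC2 and ADM2 were past 2-fold higher, with log2 FPKM ratios of 2.45, 4.18, 3.47 and 3.25, and HMOX1 was not. Of all tested genes, 17.0% were past 2-fold higher, and nothing is read from the 4 of 5, since the list holds VEGFA and was made with its value known. The genes whose log2 FPKM ratio was nearest to that of VEGFA, among those with at least 10 FPKM in both libraries, were SLC38A2 (2.44), SARS (2.41), WARS (2.36), PHGDH (2.36) and SLC3A2 (2.36). The measure of likeness was the absolute difference of the log2 ratios over 2 libraries, which was at most 0.10 for these 5 genes. SLC38A2 encodes an amino acid transporter, SLC3A2 encodes a subunit of such transporters, SARS and WARS are tRNA synthetases, and PHGDH starts serine synthesis. A shared ratio over 2 libraries says nothing of shared control.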

How the data were processed

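RNA of ARP1 cells with an inducible SRD5A1 hairpin was sequenced in 1 library without Dox and 1 with Dox. The authors deposited expected counts per gene, TPM and FPKM in the layout of RSEM, with mean transcript lengths. The submitters' processing notes name Bowtie 0.12.2, HISAT2 2.1.0, StringTie 1.3.4d and hg19 without roles. All transcripts of the 10 members are in GENCODE release 29 with the same version number, so its GRCh38 coordinates are used. Depth was 45918570 and 48728927 expected counts, so single counts weigh little and the limit that a count of 0 allows was set at 3 counts.

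Log2 ratios used FPKM plus 0.1, genes that reached 1 FPKM in either library, and a limit of 2-fold. The authors called genes with edgeR, but 1 library per condition gives no dispersion, so no p-value is given. Counts were rounded for the intervals, for TMM factors (edgeR 4.0.16) and for size factors (DESeq2 1.42.0) in R 4.3.3. Python 3.11.15 with pandas 2.3.3, numpy 2.4.6, scipy 1.17.1 and matplotlib 3.10.9 did the rest. The code for ratios and intervals was run on simulated counts with counting error only and the same gene lengths in both libraries. Error between cultures and differences in length were not simulated.

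The members and lists were chosen with earlier results of these data known. Named are the members, the VEGF and HIF genes, genes of the other lists with at least 5 FPKM and the largest absolute ratios (up to 8 a list), and the 5 genes nearest to VEGFA. VEGFD is listed under its older symbol FIGF.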

Additional observations from a re-analysis of the deposited data

How the results depend on the processing

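Alternatives were the pseudocount, the filter on low values, TPM or expected counts in place of FPKM, and TMM or DESeq2 factors. No paired analysis was possible because each condition has a single library. The VEGFA log2 ratio was 2.55 with TPM, 2.12 with expected counts, 2.24 with TMM and 2.25 with DESeq2 factors. No member changed sign under these settings. With expected counts, 2 members (VEGFA and NDRG1) and 2 VEGF genes (VEGFA and NRP2) were past 2-fold higher. Of all 14859 tested genes, 2403 were higher and 833 lower with expected counts, in place of 2521 and 953. With no filter, EGLN3 was added on 6 counts, so 2 members were higher. EGLN3 was also the 1 gene of the HIF machinery that was then higher. A pseudocount of 1 FPKM gave 7 lower HIF targets in place of 11 and left 9 higher. Among all tested genes it gave 651 lower in place of 953 and 1606 higher in place of 2521. With TMM and with DESeq2 factors, 18 HIF targets and 1 gene of the HIF machinery were lower, and 1542 and 1518 genes in all were lower. The share of higher genes among those past 2-fold was 72.6% with FPKM, 55.5% with TMM and 56.1% with DESeq2 factors. With no filter, 4735 genes were higher and 1897 lower, and with at least 5 FPKM, 1256 and 603. Depth limits EPAS1, BNIP3, CA9 and EGLN3, which had at most 47 counts.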

Other observations

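Among the receptor subunits of adrenomedullin, RAMP2 was listed at 4.75 FPKM without Dox and 3.65 FPKM with Dox (log2 -0.37), below the 5 FPKM of the naming rule and named after its values were seen. RAMP1 and RAMP3 had 0 counts in both libraries, which allows up to 3 counts in each, and CALCRL had 0 counts without Dox and 17 counts with Dox. Among the carbonic anhydrases related to CA9, CA2 was listed at 8.12 FPKM without Dox and 3.74 FPKM with Dox (log2 -1.10), and CA11 at 5.49 and 7.09 FPKM (log2 0.36).

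Antisense RNAs that overlap the members were hardly detected. Matched by transcript, HIF1A-AS1 had 0 and 3 counts, HIF1A-AS2 had 5 and 10 counts and EGLN3-AS1 had 0 counts in both libraries. AL136131.3, which overlaps VEGFA exons on the other strand, also had 0 counts in both libraries. The core letters ACGTG or GCGTG were found in 70.0% of 40 promoters of 20 targets of glycolysis. For the targets outside it, the share was 87.2% of 47 promoters of 36 genes, beside 48.4% of all promoters. Promoters of the same gene were counted separately. The lists were compiled by hand as known HIF targets and all promoters were not matched for base content, so these shares are a description and not a test.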
